A study of Homo sapiens with 4 samples.

Results

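The gene-wise difference between 2 cell lines in their response to caffeic acid phenethyl ester (CAPE) was examined. For every gene the CAPE change, the log2 value with CAPE minus the log2 value with DMSO, was taken in HK1EBV and in HK1, and the change in HK1 was subtracted from that in HK1EBV. A value above 0 therefore means that the CAPE change was higher in HK1EBV, and a value of 1 that the fold change was 2-fold higher there. This quantity is called the difference in CAPE change below. Of 25800 probe sets on the array, 18612 carried a single gene symbol and represented 18323 genes, each by its brightest probe set. Genes were examined when that probe set's mean log2 value was 0.997 or more, the 25th percentile over the array, which kept 15194.

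HK1 and HK1EBV are lines that the labels describe as established from nasopharyngeal carcinoma, an epithelial tumour. The name HK1EBV points to HK1 cells carrying Epstein-Barr virus, but the labels say nothing more of the virus, and viral transcripts were not analysed here. The 4 groups were HK1 with 0.1% DMSO, HK1 with 110 µM CAPE, HK1EBV with 0.1% DMSO and HK1EBV with 110 µM CAPE, each for 24 h and each on 1 array. All 4 shared the medium, with 10% serum, and DMSO alone served as the control in both lines.

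CAPE is a polyphenol ester of propolis, known as an electrophile and as an inhibitor of NF-κB signalling. Several of the pathways described below work as feedback loops around a sensor. Sterol depletion releases the SREBP transcription factors, which switch on the cholesterol enzymes. Amino acid shortage and unfolded protein in the endoplasmic reticulum lead to translation of ATF4, which switches on amino acid synthesis genes. Low oxygen, or loss of the prolyl hydroxylases that read it, stabilises HIF proteins, which switch on glycolysis.

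No group had a replicate, so no test was possible for any difference in CAPE change, and all counts and medians below describe these 4 libraries. The number of arrays limits the precision of every value. Nothing in the labels says whether the arrays came from separate cultures. In bulk RNA, fewer cells expressing a gene and less of its RNA per cell cannot be told apart. The array medians lay between 2.23 and 2.27. Over all genes the difference in CAPE change had a median of -0.02, an SD of 0.315 and a middle 95% from -0.64 to 0.61, and among genes of like level the SD ran from 0.253 to 0.365. Of the 7 epithelial markers measured, EPCAM (7.63 to 8.10 over the 4 arrays), CDH1 (7.61 to 8.39), KRT5 (9.49 to 10.25), KRT14 (9.13 to 9.98) and KRT18 (6.49 to 6.94) were well above the array medians, and KRT8 (2.26 to 3.05) and KRT19 (2.43 to 2.91) were close to them. The leukocyte marker PTPRC stood at 0.46 to 0.49, below the filter.

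A difference in CAPE change of at least 2-fold was seen in 117 genes. It was higher in HK1EBV for 52 genes (0.342% of those examined) and lower for 65 (0.428%). At 1.5-fold, the threshold for lists, the difference was higher for 2.80% of all genes and lower for 3.49%. The CAPE change itself was at least 1.5-fold higher for 3.38% of all genes in HK1 and 3.90% in HK1EBV. It was at least 1.5-fold lower for 3.79% and 3.63%. All list counts below are to be read beside these shares, and small counts can lie near them. The balance depended on the scaling of the arrays. With the arrays shifted to one median the counts were 70 higher and 56 lower, so that 55.6% were higher against 44.4% as deposited. At the 2-fold edge lay ADPRM (1.004) and GP6 (-1.005) just inside, and FABP4 (0.998) and CTSV (-0.999) just outside. At the filter, CYP4Z1 (difference 0.31) and GDPD2 (-0.51) were the last genes kept, and ACSM1 (-0.02) and CCDC140 (-0.07) the first left out.

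The 117 genes were sorted by the line in which the CAPE change lay. Among the 52 with a higher change in HK1EBV, 23 were at least 1.5-fold lower with CAPE in HK1 and within 1.5-fold in HK1EBV. A further 19 were at least 1.5-fold higher with CAPE in HK1EBV and within 1.5-fold in HK1. Among the 65 with a lower change in HK1EBV, 33 were higher with CAPE in HK1 only, and 23 were lower with CAPE in HK1EBV only. The same direction in both lines, past 1.5-fold in each, was seen in 6 and 5 genes of the respective sets. The remaining 3 and 1 genes were past 1.5-fold in opposite directions, and 1 and 3 were past it in neither line.

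Each difference was also traced to the array standing apart, the array whose removal left the smallest range among the other 3. For the 52 genes this was HK1 with DMSO in 14, HK1 with CAPE in 13, HK1EBV with DMSO in 6 and HK1EBV with CAPE in 19. For the 65 genes the counts in the same order were 16, 24, 15 and 10. A difference in CAPE change can thus rest on a DMSO array as well as on a CAPE array. Over all genes examined the shares were 24.3%, 25.2%, 22.2% and 28.2%. The distance between the lines was smaller with CAPE than with DMSO for 20 of the 52 and for 31 of the 65. The share over all genes was not counted. The difference in CAPE change is also the change in the signed distance between the lines. These genes were therefore chosen by it, and the counts describe them only.

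**Figure D1:**
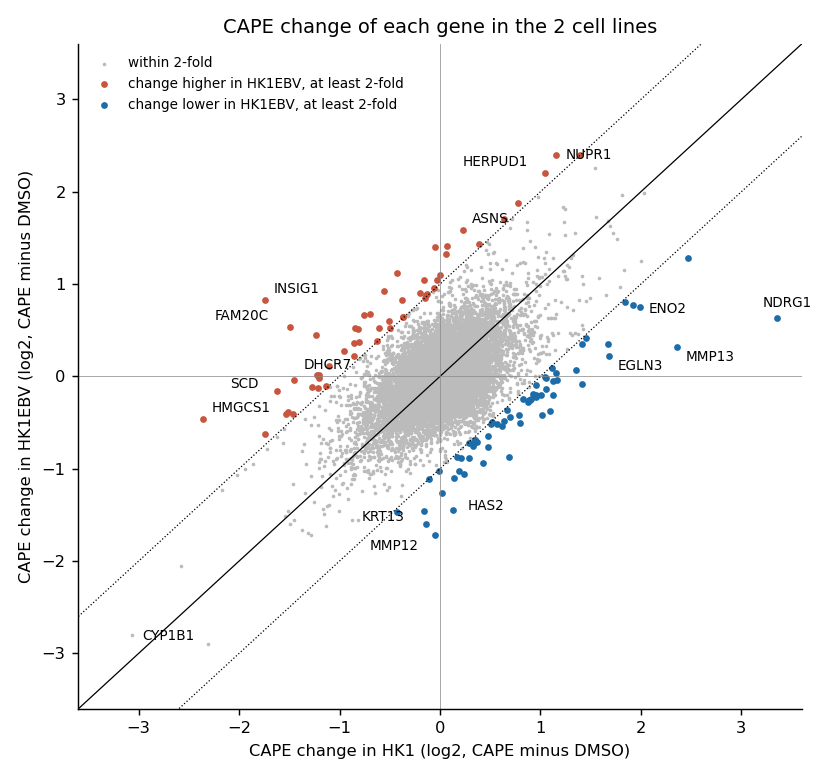
CAPE change of each of 15194 genes in HK1 (x axis) and HK1EBV (y axis), both as log2 CAPE minus DMSO, 1 array per group. The solid line marks equal changes and the dotted lines a 2-fold difference; 52 genes lie above the upper dotted line, led by INSIG1, and 65 below the lower one, led by NDRG1.

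As a list, the enzymes of cholesterol synthesis were lower with CAPE in HK1 and close to their DMSO level in HK1EBV. Of 15 examined, 9 were at least 1.5-fold lower with CAPE in HK1 (all genes, 3.79%) and 0 were in HK1EBV (all genes, 3.63%). The median CAPE change was -0.83 in HK1 and -0.05 in HK1EBV, and the median difference was 0.77, against -0.02 over all genes. At least 1.5-fold, 8 of the 15 had a higher change in HK1EBV (all genes, 2.80%) and 0 a lower one (all genes, 3.49%). The array standing apart was HK1 with DMSO for 10 of the 15, and the median distance between the lines, HK1EBV minus HK1, was -0.52 with DMSO and 0.05 with CAPE.

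HMGCS1, which makes the HMG-CoA that feeds the pathway, stood at 7.24 with DMSO and 4.88 with CAPE in HK1, and at 5.11 and 4.65 in HK1EBV. The HK1 DMSO array was the high one, and the other 3 lay within 0.46 of each other, so the difference of 1.90 went with unequal starting levels. IDI1, which isomerises isopentenyl diphosphate, stood at 5.57 and 4.37 in HK1 and at 5.11 and 5.12 in HK1EBV, a difference of 1.22. Here only the HK1 CAPE array was low.

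Later steps behaved in both ways. SQLE, the squalene epoxidase, read 7.60 and 6.64 in HK1 and 5.81 and 6.09 in HK1EBV, a difference of 1.24. DHCR7, the last reductase of the pathway, read 8.51 and 7.06 in HK1 and 7.85 and 7.81 in HK1EBV, a difference of 1.42. SQLE was lower in HK1EBV under both treatments, whereas DHCR7 was low on the HK1 CAPE array alone. Of the others past 2-fold, the sterol demethylation enzymes MSMO1 (1.21) and CYP51A1 (1.03) came to nearly one level in the lines with CAPE, at 5.97 and 6.02 for MSMO1 and at 6.93 and 6.92 for CYP51A1. SC5D, the sterol desaturase, read 5.24 and 4.73 in HK1 and 4.41 and 5.01 in HK1EBV, a difference of 1.11. It was the 1 enzyme of the list at least 1.5-fold higher with CAPE in HK1EBV. LSS, the lanosterol synthase, differed by 0.77, and MVD, MVK, FDPS, NSDHL and EBP by 0.34 to 0.51. PMVK, a mevalonate pathway kinase, differed by -0.33, and TM7SF2, a sterol reductase, did not differ to 2 decimals.

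INSIG1, the membrane protein that holds the SREBP escort SCAP in the endoplasmic reticulum, had the highest difference of all 15194 genes. Its log2 values were 5.74 with DMSO and 3.99 with CAPE in HK1, and 5.10 and 5.93 in HK1EBV. It was thus lower with CAPE in HK1 and higher with CAPE in HK1EBV, and the difference of 2.58 is a 5.96-fold one. SREBF2, which encodes the SREBP that drives cholesterol genes, read 5.67 and 5.09 in HK1 and 4.97 and 5.02 in HK1EBV (difference 0.63). SREBF1, which encodes the SREBP forms better known for fatty acid genes, had a difference of -0.26.

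The other genes of sterol sensing, uptake and efflux were not of one pattern. Of the 14 examined, INSIG1 and SREBF2 were at least 1.5-fold higher in their CAPE change in HK1EBV (all genes, 2.80%). Of the list 0 were lower (all genes, 3.49%), and the median was 0.13. STARD4, a sterol carrier, differed by 0.54, and so did NPC1, which exports cholesterol from lysosomes. NPC1 was higher with CAPE in both lines, by 0.39 and 0.92. INSIG2, the paralogue of INSIG1, differed by -0.01, with CAPE changes of 0.69 and 0.68. The paralogues therefore gave the widest and one of the narrowest differences of this group.

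Fatty acid synthesis genes showed a smaller shift, with a median difference of 0.30 over 16 genes. Of these, 5 were at least 1.5-fold higher (all genes, 2.80%) and 0 lower (all genes, 3.49%). SCD, the stearoyl-CoA desaturase, stood at 8.83 and 7.21 in HK1 and at 7.89 and 7.73 in HK1EBV, a difference of 1.47. LPIN1, a phosphatidate phosphatase of triglyceride synthesis, stood at 5.07 and 4.21 in HK1 and at 4.29 and 4.52 in HK1EBV, a difference of 1.08. FASN, the fatty acid synthase, read 6.24 and 4.30 in HK1 and 6.05 and 5.04 in HK1EBV (0.93), lower with CAPE in both. ACLY, which makes cytosolic acetyl-CoA for both pathways, differed by 0.01 with CAPE changes of -0.76 and -0.75. The difference was thus wide for SCD and near 0 for ACLY, although both were lower with CAPE in HK1. ACSS2, the acetyl-CoA synthetase, differed by 0.75.

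**Figure D2:**
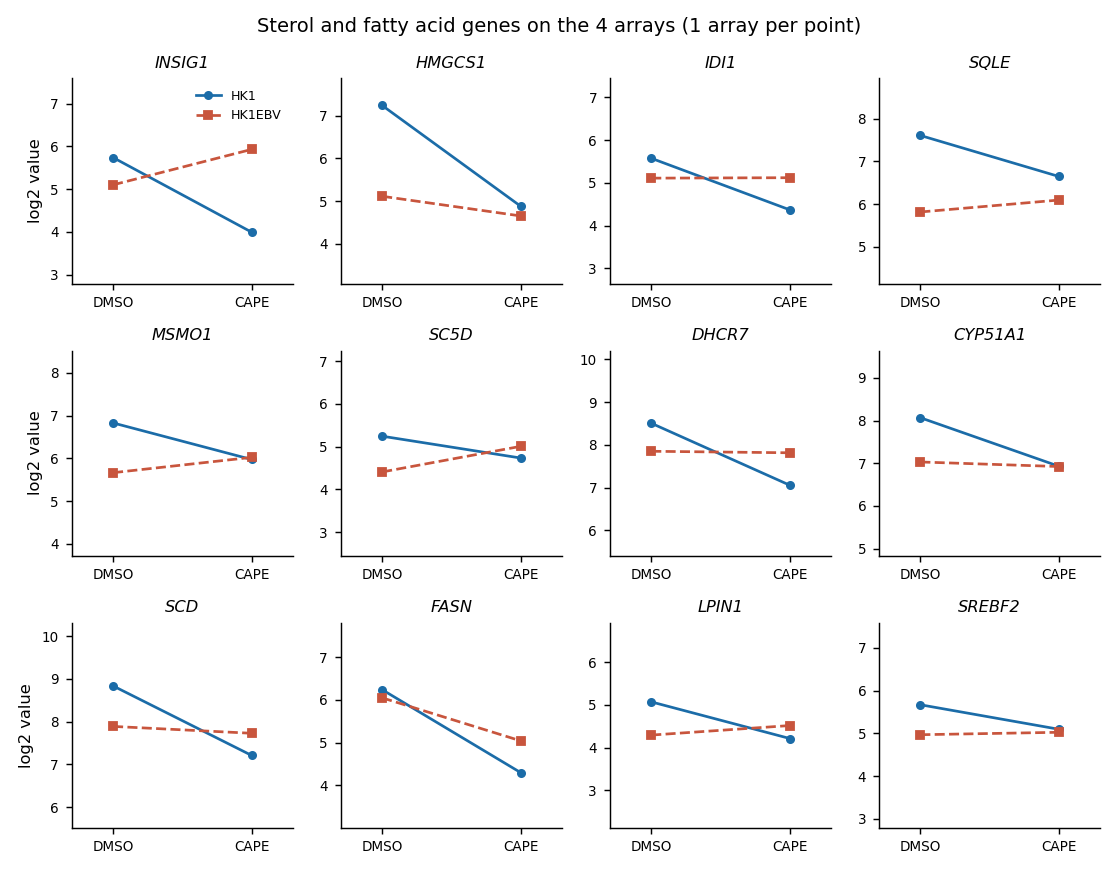
Log2 values of 12 sterol and fatty acid genes with DMSO and CAPE in HK1 (circles, solid line) and HK1EBV (squares, dashed line), 1 array per point and each panel spanning its own range of levels. HMGCS1, SQLE and MSMO1 start higher in HK1 and meet or near HK1EBV with CAPE, whereas INSIG1, IDI1 and DHCR7 cross.

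The letters TCACNCCAC, the core of a sterol regulatory element, were searched on both strands of RefSeq promoters (GRCh38.p14, 250 bases before to 50 after the gene start). They were in 0 of the 14 cholesterol synthesis promoters given there, beside 1.41% of the 11880 promoters of genes examined, which says only that these letters are not in these windows. They were in 1 of 13 promoters of sterol sensing, uptake and efflux genes, SREBF2, and in 1 of 15 of fatty acid synthesis genes, ACSL1.

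Replication-dependent histone genes, which are copied during S phase and end in a stem-loop in place of a poly(A) tail, had the second broad positive difference. Of 45 examined, 27 had a CAPE change at least 1.5-fold higher in HK1EBV (all genes, 2.80%) and 0 a lower one (all genes, 3.49%). The median was 0.66, and 43 were above 0, as were 46.9% of all genes. With CAPE, 32 of the 45 were at least 1.5-fold lower in HK1 (all genes, 3.79%) and 6 in HK1EBV (all genes, 3.63%), with median changes of -0.77 and -0.21. The array standing apart was HK1 with CAPE for 32 of the 45.

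H2BC4, an H2B gene, read 3.53 and 2.82 in HK1 and 3.55 and 4.22 in HK1EBV, a difference of 1.37. With DMSO the lines were level, and with CAPE they parted in opposite directions. H3C10, an H3 gene, read 4.79 and 3.05 in HK1 and 4.63 and 4.004 in HK1EBV, a difference of 1.12. It was lower with CAPE in both lines, as were the H2A genes H2AC12 (5.92 and 4.40, then 5.38 and 5.00) and H2AC15 (4.72 and 3.19, then 3.87 and 3.47), which also differed by 1.12 each. Histone genes are near copies of one another, so their probe sets may share signal and are not independent.

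Histone RNA follows DNA synthesis, so other S-phase genes are set beside it. The G1/S and DNA replication list of 39 genes had a median difference of -0.16, with 33 below 0 (all genes, 52.8%). At least 1.5-fold, 0 were higher (all genes, 2.80%) and 1 was lower (all genes, 3.49%). That 1 was UHRF1, which keeps DNA methylation at forks, at 5.35 and 5.03 in HK1 and 5.45 and 4.45 in HK1EBV (difference -0.68, and -0.63 on its other probe set). The sign of this list was thus opposite to that of the histones. TYMS, the thymidylate synthase, differed by -0.48, CDC45, a helicase subunit, by -0.52 and RFC2, a clamp loader subunit, by -0.57. MKI67, a marker of cycling cells, was lower with CAPE by nearly the same amount in both lines (6.99 and 6.46, then 7.13 and 6.52), a difference of -0.08.

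Of 43 mitotic genes, 22 in HK1 (all genes, 3.79%) and 19 in HK1EBV (all genes, 3.63%) were at least 1.5-fold lower with CAPE. They had median changes of -0.62 in HK1 and -0.52 in HK1EBV and a median difference of 0.09. The difference was at least 1.5-fold higher for 2 (all genes, 2.80%) and lower for 1 (all genes, 3.49%). KIF20A, a kinesin of the cleavage furrow, read 5.94 and 3.77 in HK1 and 6.54 and 5.31 in HK1EBV, a difference of 0.94. SGO2, which guards centromeric cohesin, differed by 0.63. PSRC1, a spindle protein, went the other way at -0.62.

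Genes of the ATF4 and CHOP stress response were higher with CAPE in both lines, and the excess in HK1EBV was spread over part of the list. Of 23 examined, 9 in HK1 (all genes, 3.38%) and 14 in HK1EBV (all genes, 3.90%) were at least 1.5-fold higher with CAPE. The median changes were 0.53 and 0.77 and the median difference 0.26. The difference was at least 1.5-fold higher for 6 (all genes, 2.80%) and lower for 1 (all genes, 3.49%). HK1EBV with DMSO was the array standing apart for 13 of the 23.

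ATF4 itself stood at 7.66 with DMSO and 7.75 with CAPE in HK1, and at 6.95 and 7.75 in HK1EBV. Only the HK1EBV DMSO array was low, and with CAPE both lines read 7.75, a difference in CAPE change of 0.70. A dimmer probe set of ATF4 went the other way, at 4.81 and 5.16 in HK1 and 4.81 and 4.84 in HK1EBV (-0.33), and the mean of both gave 0.19. CHAC1, which degrades glutathione, was lowest on the HK1EBV DMSO array, at 5.64 and 6.36 in HK1 and 4.36 and 6.07 in HK1EBV. It was higher with CAPE in both lines, by 0.72 and 1.71, a difference of 0.99. DDIT3, which encodes CHOP, read 4.03 and 5.43 in HK1 and 3.93 and 6.33 in HK1EBV. The lines were close with DMSO, and the difference of 1.01 lay mainly in the CAPE arrays. NUPR1, a stress-induced chromatin protein, read 4.21 and 5.37 in HK1 and 3.73 and 6.12 in HK1EBV (1.24). In NUPR1 the lines crossed, since HK1EBV was lower with DMSO and higher with CAPE. GDF15, a secreted stress cytokine, differed by 0.80 and CTH, a transsulfuration enzyme, by 0.61. STC2, a secreted glycoprotein, was the single member past 1.5-fold in the other direction, at 4.70 and 5.78 in HK1 and 3.54 and 3.92 in HK1EBV (-0.69).

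Several of the 15 genes of amino acid and one-carbon synthesis are known targets of ATF4. With CAPE, 4 of the 15 were at least 1.5-fold higher in HK1EBV (all genes, 3.90%) and 1 was lower (all genes, 3.63%). In HK1 0 were higher (all genes, 3.38%) and 0 lower (all genes, 3.79%). The median changes were -0.05 in HK1 and 0.24 in HK1EBV and the median difference 0.35. The difference was at least 1.5-fold higher for 4 (all genes, 2.80%) and lower for 0 (all genes, 3.49%). ASNS, the asparagine synthetase, read 7.34 and 7.57 in HK1 and 6.36 and 7.94 in HK1EBV, a difference of 1.36. PSAT1, of serine synthesis, was level between the lines with DMSO (6.95 and 6.92) and read 6.75 and 7.83 with CAPE, a difference of 1.11. PCK2, the mitochondrial PEP carboxykinase, differed by 0.95. PHGDH, which opens serine synthesis, read 6.15 and 6.71 in HK1 and 3.77 and 5.00 in HK1EBV (0.67), and stayed lower in HK1EBV under both treatments. With CAPE, ASNS, PSAT1 and PCK2 were higher in HK1EBV than in HK1 and PHGDH was lower.

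Charging enzymes showed a narrow shift shared by most of them. Of 19 cytosolic aminoacyl-tRNA synthetases, which load amino acids onto tRNA, 15 had a positive difference (all genes, 46.9%), with a median of 0.32. Only GARS1, for glycine, was at least 1.5-fold higher (all genes, 2.80%), and 0 were lower (all genes, 3.49%). GARS1 read 9.36 and 9.43 in HK1 and 8.63 and 9.29 in HK1EBV (0.59). WARS1, for tryptophan, differed by 0.55, IARS1, for isoleucine, by 0.47, and EPRS1, for glutamate and proline, by 0.44. The 4 below 0 were those for histidine (HARS1, -0.18), lysine (KARS1, -0.12), valine (VARS1, -0.07) and the phenylalanine subunit FARSB (-0.15). Of 14 amino acid transporters 0 were past 1.5-fold in either direction, with a median of 0.16 and SLC7A11, the cystine carrier, highest at 0.46.

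ATF4 pairs with C/EBP proteins on an element whose letters were taken as TGATGNAA and searched on both strands of the same promoters. They were present in 3.03% of the promoters of genes examined. Among the lists they were in 7 of 16 synthetase promoters (43.8%), 6 of 13 transporter promoters (46.2%), 3 of 10 amino acid synthesis promoters and 5 of 18 of the ATF4 and CHOP list. Of the genes past 2-fold, 3 of 40 higher and 3 of 51 lower ones held a match. The windows of 5 genes are shown because they hold the element beside a described difference, on the strand of the gene, 5′ to 3′, with the match in capitals. They come from RefSeq (GRCh38.p14), and a match is a description of letters, not evidence of binding.
ASNS (chr7:97872429-97872516, minus strand): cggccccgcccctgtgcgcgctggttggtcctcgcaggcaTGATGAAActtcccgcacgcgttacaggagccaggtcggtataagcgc
CHAC1 (chr15:40953222-40953309, plus strand): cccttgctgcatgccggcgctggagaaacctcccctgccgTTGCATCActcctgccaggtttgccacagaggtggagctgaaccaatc
HERPUD1 (chr16:56931926-56932013, plus strand): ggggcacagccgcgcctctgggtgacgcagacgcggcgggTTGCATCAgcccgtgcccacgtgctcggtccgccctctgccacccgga
AARS1 (chr16:70289646-70289733, minus strand): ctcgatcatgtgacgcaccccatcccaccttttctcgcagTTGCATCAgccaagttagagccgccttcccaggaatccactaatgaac
GARS1 (chr7:30594805-30594877, plus strand): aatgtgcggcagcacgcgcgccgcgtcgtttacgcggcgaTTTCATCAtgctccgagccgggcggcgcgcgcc

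The element begins 68 bases before the start in ASNS, 209 in CHAC1, 176 in HERPUD1, 187 in AARS1 and 33 in GARS1. In ASNS it reads forward and in the other 4 it lies on the opposite strand. AARS1, for alanine, differed by 0.31 with CAPE changes of 0.70 and 1.01. Other genes holding these letters had negative values, among them ATF3 (-0.40), a factor of the same response, the glutamate carrier SLC1A3 (-0.17) and KLK6 (-1.28).

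HERPUD1, which helps remove unfolded protein from the endoplasmic reticulum, read 6.07 and 7.12 in HK1 and 5.72 and 7.91 in HK1EBV, a difference of 1.15. It was the only 1 of 28 endoplasmic reticulum chaperone and unfolded protein response genes at least 1.5-fold higher (all genes, 2.80%). Of these genes 0 were lower (all genes, 3.49%). Their median changes were 0.40 in HK1 and 0.43 in HK1EBV, and their median difference was 0.15. DNAJB9, a co-chaperone, differed by 0.57 and SEL1L, of the degradation complex, by 0.48. HSPA5, the main luminal chaperone BiP, was higher with CAPE by like amounts, at 8.79 and 9.29 in HK1 and 9.07 and 9.74 in HK1EBV (0.17). CALR, calreticulin, differed by -0.22. The difference of HERPUD1 was thus the widest of its list, with DNAJB9 next.

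The endoplasmic reticulum stress element, a CCAAT box set apart from CCACG by 9 bases and searched on both strands, was in 0.135% of promoters of genes examined and in 7 of 26 of this list. All 7 (HSPA5, HSP90B1, CALR, CANX, PDIA6, CRELD2 and XBP1) had differences between -0.25 and 0.35. The windows of 2 chaperones are printed to set beside those of the ATF4 element, with the match in capitals (RefSeq, GRCh38.p14).
HSPA5 (chr9:125241351-125241449, minus strand): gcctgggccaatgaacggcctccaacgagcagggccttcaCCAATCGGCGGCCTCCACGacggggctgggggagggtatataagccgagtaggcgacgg
HSP90B1 (chr12:103930281-103930379, plus strand): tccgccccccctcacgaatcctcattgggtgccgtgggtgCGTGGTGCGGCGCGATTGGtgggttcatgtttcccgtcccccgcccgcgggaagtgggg

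Hypoxia response genes were higher with CAPE in both lines and more so in HK1. Of 24 examined, 17 in HK1 (all genes, 3.38%) and 13 in HK1EBV (all genes, 3.90%) were at least 1.5-fold higher with CAPE. The median changes were 0.88 and 0.64 and the median difference -0.31, with 7 at least 1.5-fold lower in HK1EBV (all genes, 3.49%) and 0 higher (all genes, 2.80%). The array standing apart was HK1 with CAPE for 14 of the 24.

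NDRG1, a stress protein that is strongly induced by low oxygen, had the lowest difference of all genes. It read 5.94 with DMSO and 9.29 with CAPE in HK1, and 7.82 and 8.46 in HK1EBV. The HK1 DMSO array was the low one, and the difference of -2.72 is a 6.61-fold one. EGLN3, a prolyl hydroxylase that marks HIF for decay, read 2.34 and 4.03 in HK1 and 2.02 and 2.25 in HK1EBV (-1.46). PDK1, which keeps pyruvate out of the mitochondria, read 4.88 and 6.29 in HK1 and 4.74 and 5.09 in HK1EBV (-1.06). In EGLN3 and PDK1 the lines began close together and the HK1 CAPE array alone was high. PLOD2, a collagen lysyl hydroxylase, differed by -0.76. The mitophagy receptors BNIP3 (-0.74) and BNIP3L (-0.65) and the histone demethylase KDM3A (-0.60) completed the 7.

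Not all genes of this response followed. P4HA1, a collagen prolyl hydroxylase, was higher with CAPE by 1.72 and 1.55, a difference of -0.17. ADM, the vasodilator peptide adrenomedullin, differed by -0.11 and BHLHE40, a transcriptional repressor, by 0.04. VEGFA, the vascular growth factor, differed by 0.35 in the opposite direction, at 6.73 and 7.15 in HK1 and 5.91 and 6.68 in HK1EBV. VEGFA and DDIT4 (0.45) are also members of the ATF4 list above. HIF1A, the oxygen-regulated subunit itself, differed by -0.12.

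Glycolysis shared the shift, with 15 of 18 genes below 0 (all genes, 52.8%) and a median difference of -0.52. Of the 18, 6 were at least 1.5-fold lower (all genes, 3.49%) and 0 higher (all genes, 2.80%). The median changes were 0.49 in HK1 and 0.16 in HK1EBV. With CAPE, 8 of the 18 were at least 1.5-fold higher in HK1 (all genes, 3.38%) and 1 was in HK1EBV (all genes, 3.90%). That 1 was ENO2, the neuronal-type enolase, at 2.52 and 4.51 in HK1 and 3.39 and 4.14 in HK1EBV (-1.24). SLC2A1, the glucose transporter GLUT1, read 7.67 and 8.93 in HK1 and 8.33 and 8.63 in HK1EBV (-0.97). HK2, a hexokinase, read 5.81 and 6.95 in HK1 and 5.93 and 6.22 in HK1EBV (-0.86). For SLC2A1 and ENO2 the HK1EBV level was the higher one with DMSO and the lower one with CAPE. PFKP, a phosphofructokinase, and GPI, the glucose phosphate isomerase, each differed by -0.63, and ENO1, the common enolase, by -0.59. GAPDH (0.03), ALDOA (0.09) and ALDOC (0.28) were the 3 above 0.

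**Figure D3:**
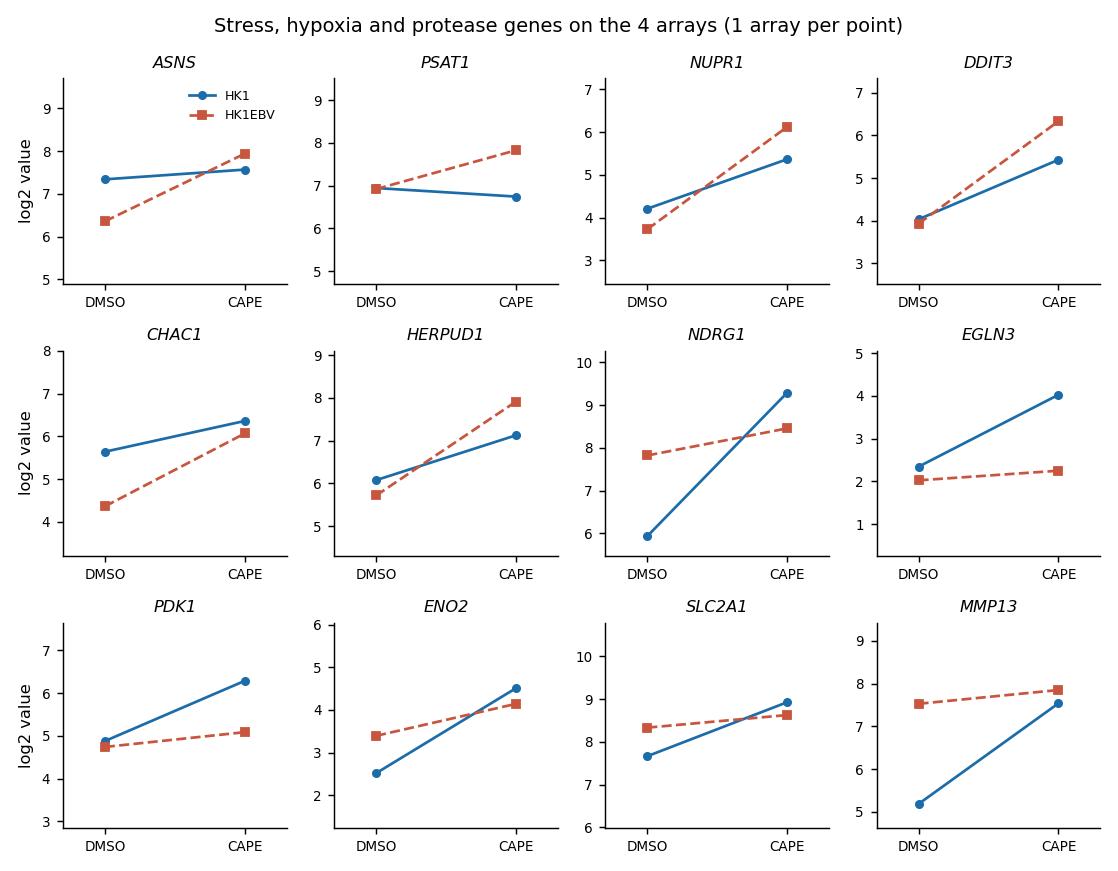
Log2 values of 12 stress, hypoxia, glycolysis and protease genes with DMSO and CAPE in HK1 (circles, solid line) and HK1EBV (squares, dashed line), 1 array per point. The upward slope is steeper in HK1EBV for ASNS, NUPR1, DDIT3, CHAC1 and HERPUD1. It is steeper in HK1 for NDRG1, EGLN3, PDK1, ENO2, SLC2A1 and MMP13. PSAT1 slopes upward in HK1EBV and slightly downward in HK1.

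Secreted matrix proteases held 3 of the 20 lowest differences. MMP13, a collagenase, read 5.19 and 7.54 in HK1 and 7.53 and 7.85 in HK1EBV, a difference of -2.03. HK1 with DMSO was the low array, and with CAPE the HK1 level came to that of HK1EBV with DMSO. MMP10, a stromelysin, showed the same at 3.41 and 4.53 in HK1 and 4.79 and 4.59 in HK1EBV (-1.32). MMP12, the macrophage elastase, lay below the filter level on both HK1 arrays (0.73 and 0.69) and read 2.89 and 1.17 in HK1EBV (-1.67). Its difference therefore rests on HK1EBV alone. MMP1, the interstitial collagenase, read 7.16 and 7.69 in HK1 and 8.49 and 8.10 in HK1EBV (-0.92). Of the 30 proteases and inhibitors 7 were at least 1.5-fold lower (all genes, 3.49%) and 0 higher (all genes, 2.80%), but the list's median was -0.09. The other 3 were ADAM8 (-0.87), a sheddase, TIMP3 (-0.85, but 0.07 on its other probe set), an inhibitor, and MMP28 (-0.71).

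Genes of the matrix itself gave single wide differences. LOXL2, which crosslinks collagen, read 4.99 and 6.34 in HK1 and 4.92 and 4.99 in HK1EBV (-1.28), so that only the HK1 CAPE array was high. HAS2, a hyaluronan synthase, read 1.28 and 1.41 in HK1 and 4.48 and 3.03 in HK1EBV (-1.57). ITGA5, the fibronectin receptor subunit, was higher with CAPE in both lines, at 4.94 and 6.78 in HK1 and 4.93 and 5.73 in HK1EBV (-1.04). It was the only 1 of 18 integrins and laminins at least 1.5-fold lower (all genes, 3.49%). Of the 18, 0 were higher (all genes, 2.80%), and the list median was -0.15. TNC, tenascin C, differed by -0.85 and CALD1, an actin regulator, by 0.59. The median of the 26 mesenchymal and matrix genes was -0.14. THBS1, thrombospondin, had CAPE changes of -1.13 in HK1 and -1.62 in HK1EBV.

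The NF-κB list, which holds the factors and targets of the pathway that CAPE is known to inhibit, had a median difference of -0.04 over 27 genes. It held 4 genes at least 1.5-fold lower (all genes, 3.49%) and 0 higher (all genes, 2.80%). TRAF1, a signalling adaptor, read 1.23 and 2.53 in HK1 and 1.46 and 1.93 in HK1EBV (-0.83). SOD2, the mitochondrial superoxide dismutase, read 4.86 and 5.87 in HK1 and 5.04 and 5.38 in HK1EBV (-0.68). Both were higher with CAPE in HK1EBV as well, by a smaller amount. IKBKE, a kinase of the pathway, differed by -0.86, and LTB, lymphotoxin beta, by -0.69 but by -0.12 on its other probe set.

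The widest differences among chemokines were positive. CCL20, which draws CCR6-bearing lymphocytes, read 4.58 and 4.65 in HK1 and 2.98 and 4.39 in HK1EBV, a difference of 1.34. CXCL1, which draws neutrophils, read 3.17 and 2.78 in HK1 and 3.12 and 3.94 in HK1EBV (1.21). CCL20 was low on the HK1EBV DMSO array, whereas CXCL1 was high on the HK1EBV CAPE array. CXCL8, also a neutrophil chemokine, was higher with CAPE in both lines, by 1.12 and 1.29, a difference of 0.16. IL6, a cytokine, differed by 0.16 at levels of 0.89 to 1.34. Over the 30 chemokines and cytokines 2 were at least 1.5-fold higher (all genes, 2.80%) and 1 was lower (all genes, 3.49%), with a median of -0.04. The lower one was IL7R (-0.61), a cytokine receptor.

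Among 39 interferon response genes the median difference was 0.01, with 5 at least 1.5-fold higher (all genes, 2.80%) and 1 lower (all genes, 3.49%). IFI44L, an interferon-induced protein, read 3.14 and 2.98 in HK1 and 4.35 and 5.40 in HK1EBV (1.20). IFIT1, which binds foreign RNA, read 3.97 and 3.45 in HK1 and 5.21 and 5.65 in HK1EBV (0.95). IRF9, the DNA-binding part of the interferon transcription complex, read 3.30 and 3.57 in HK1 and 4.10 and 5.29 in HK1EBV (0.92). In all 3 the HK1EBV level exceeded that of HK1 already with DMSO, and the distance was larger with CAPE. IFI44 differed by 0.72 and USP18, which damps interferon signalling, by 0.61. IRF1, an interferon-induced transcription factor, was the 1 lower gene (-0.59). SLFN13, an RNA-cleaving protein of the Schlafen family, lay outside this list and had one of the 20 highest differences, at 1.90 and 1.34 in HK1 and 3.32 and 4.24 in HK1EBV (1.48). Over 10 class I antigen presentation genes 0 were past 1.5-fold, with a median of 0.01.

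KRT13, a keratin of the upper layers of mucosal epithelium, read 4.01 and 3.88 in HK1 and 6.28 and 4.68 in HK1EBV (-1.47). KLK6, a kallikrein protease, read 2.10 and 2.12 in HK1 and 2.85 and 1.58 in HK1EBV (-1.28). Both were higher in HK1EBV than in HK1 with DMSO and lower with CAPE in HK1EBV. KLK10, another kallikrein, read 6.44 and 6.77 in HK1 and 5.41 and 4.66 in HK1EBV (-1.08), and was lower in HK1EBV under both treatments. FGFBP1, which releases FGF from the matrix and is in none of the lists, read 6.07 and 5.90 in HK1 and 8.08 and 6.62 in HK1EBV (-1.29).

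Of 19 keratins 3 were at least 1.5-fold lower (all genes, 3.49%) and 0 higher (all genes, 2.80%). The 3 were KRT13, the basal keratin KRT14 (-0.73) and the simple-epithelium keratin KRT8 (-0.69). The keratin median was -0.10, or -0.38 with the filter at the 50th percentile. The same shares of all genes stand beside the next 3 lists. Of 41 squamous differentiation genes 3 were lower and 1 higher (median -0.07). The 1 higher gene was ALOX12B (0.85), a lipoxygenase of the skin barrier. Of 25 squamous transcription factors 2 were lower and 0 higher (median -0.18), SOX2 (4.20 and 3.32, then 6.10 and 4.54, -0.68) and ELF3 (-0.64). Of 18 epithelial junction genes 2 were lower and 1 higher (median 0.01). MUC1, a membrane mucin, was the lowest of these at 1.69 and 2.48 in HK1 and 2.09 and 1.59 in HK1EBV (-1.30). EPCAM, the adhesion molecule, was the highest at 8.10 and 7.63 in HK1 and 7.85 and 8.10 in HK1EBV (0.72, and 0.50 on its other probe set). The 7 epithelial markers measured had a median of -0.53, with 6 below 0.

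IGFBP3, which binds insulin-like growth factors and is in none of the lists, read 7.48 and 8.58 in HK1 and 8.06 and 7.69 in HK1EBV (-1.47). INHBA, the activin A subunit, read 2.08 and 3.14 in HK1 and 3.21 and 3.08 in HK1EBV (-1.19). KLF6, a zinc finger factor, read 3.57 and 4.70 in HK1 and 3.59 and 3.53 in HK1EBV (-1.18). FOSL2, an AP-1 subunit, read 5.23 and 6.28 in HK1 and 5.93 and 5.93 in HK1EBV (-1.05). These 4 were at least 2-fold higher with CAPE in HK1 and level or lower with CAPE in HK1EBV.

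EGR1, the early growth response factor, differed by 0.70 and was the 1 of 34 immediate early genes past 1.5-fold in the positive direction (all genes, 2.80%). Another 3 were lower (all genes, 3.49%), and the list median was -0.04. Among 29 TGF-beta and YAP targets 1 was higher (all genes, 2.80%) and 3 were lower (all genes, 3.49%), with a median of 0.04. The higher one was ID3 (0.88), an inhibitor of basic helix-loop-helix factors. Among 13 EGF receptor genes and ligands 2 were lower (all genes, 3.49%) and 0 higher (all genes, 2.80%), with a median of -0.19. These were the ligands NRG4 (3.17 and 4.01, then 3.20 and 3.13, -0.91) and TGFA (-0.61).

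Of the remaining 20 highest genes, several had no list. FAM20C, the kinase of secreted proteins, read 5.44 and 3.95 in HK1 and 2.71 and 3.24 in HK1EBV, a difference of 2.02. KIF27, a kinesin linked to cilia, read 3.50 and 2.26 in HK1 and 3.06 and 3.51 in HK1EBV (1.69). Both were low on the HK1 CAPE array relative to HK1 with DMSO, but FAM20C stayed higher in HK1 throughout. SELENOM, a selenoprotein of the endoplasmic reticulum, read 3.19 and 2.77 in HK1 and 3.42 and 4.55 in HK1EBV (1.55). INHBE, an activin subunit known as a stress target, read 1.21 and 1.16 in HK1 and 1.11 and 2.51 in HK1EBV (1.45). YPEL3 read 2.80 and 2.85 in HK1 and 3.61 and 4.94 in HK1EBV (1.27). In these 3 the HK1EBV CAPE array was the high one. VIPR1, a neuropeptide receptor, read 4.43 and 3.68 in HK1 and 3.32 and 3.98 in HK1EBV (1.41), so the lines exchanged their order. FIGN, an ATPase related to microtubule-severing enzymes, read 2.60 and 1.78 in HK1 and 0.78 and 1.29 in HK1EBV (1.33). Its HK1EBV DMSO value lay below the filter level.

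Small RNA genes supplied 3 of the 20 highest. MIR21 read 3.62 and 2.78 in HK1 and 3.47 and 3.99 in HK1EBV (1.37), MIR181B1 read 3.34 and 2.23 in HK1 and 2.63 and 2.75 in HK1EBV (1.22), and the Y RNA gene RNY1 read 1.97 and 0.74 in HK1 and 1.21 and 1.22 in HK1EBV (1.24). All 3 were lower with CAPE in HK1, and the HK1 CAPE value of RNY1 lay below the filter level. Of 226 small RNA genes examined these 3 (1.33%) were past 2-fold, against 114 of 14968 other genes (0.762%). The mature products are shown with the seed, bases 2 to 8, in capitals (RefSeq, GRCh38.p14), because the difference concerns these genes. The files do not say whether the probe sets read the mature or the precursor RNA, and the 2 seeds differ.
hsa-miR-21-5p (chr17:59841273-59841294, plus strand): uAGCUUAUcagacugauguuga
hsa-miR-181b-5p (chr1:198858925-198858947, minus strand): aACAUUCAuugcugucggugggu

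Of the 8 other genes among the 20 lowest, the CAPE change was past 1.5-fold in HK1 only for 3, in HK1EBV only for 4 and in both for 1. DGCR6, named for the DiGeorge critical region, read 3.45 and 4.14 in HK1 and 4.41 and 3.54 in HK1EBV (-1.56), with opposite changes past 1.5-fold. IL10RB, a shared cytokine receptor chain, read 2.49 and 3.90 in HK1 and 1.96 and 1.87 in HK1EBV (-1.502). LIPH, a lipase that makes lysophosphatidic acid, read 2.47 and 4.14 in HK1 and 2.90 and 3.25 in HK1EBV (-1.32). IL10RB and LIPH were high on the HK1 CAPE array. ATP2B4, a calcium pump of the plasma membrane, read 5.34 and 6.36 in HK1 and 6.84 and 6.42 in HK1EBV (-1.44). NMUR2, a neuromedin receptor, read 0.89 and 1.32 in HK1 and 2.82 and 1.88 in HK1EBV (-1.37). WIPF3, an actin regulator, read 1.45 and 1.93 in HK1 and 2.30 and 1.53 in HK1EBV (-1.25). For NMUR2 and WIPF3 the HK1EBV DMSO array was the high one. The pseudogene CSPG4P5 read 1.46 and 1.69 in HK1 and 1.84 and 0.78 in HK1EBV (-1.30). PTGR3, a reductase, read 3.91 and 4.05 in HK1 and 3.77 and 2.67 in HK1EBV (-1.24). In these last 2 the HK1EBV CAPE array was low. The HK1EBV CAPE value of CSPG4P5 and the HK1 DMSO value of NMUR2 lay below the filter level.

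Electrophile response and aryl hydrocarbon receptor genes differed little between the lines as lists. For 31 NRF2 and thiol response genes, which answer electrophiles, the median changes were 0.50 and 0.42 and the median difference 0.10. The difference was at least 1.5-fold higher for 2 (all genes, 2.80%) and lower for 1 (all genes, 3.49%). FTL, the ferritin light chain, read 6.77 and 7.46 in HK1 and 6.70 and 8.30 in HK1EBV (0.91). AKR1B10, an aldo-keto reductase, read 0.79 and 1.84 in HK1 and 2.60 and 2.58 in HK1EBV (-1.07), with the HK1 DMSO value below the filter level. HMOX1, heme oxygenase, differed by -0.09 and NQO1, a quinone reductase, by 0.20. CYP1B1, an aryl hydrocarbon receptor target, was far lower with CAPE in both lines, at 4.74 and 1.67 in HK1 and 4.52 and 1.72 in HK1EBV, a difference of 0.27. CYP1A1 (-0.68) and CYP1A2 (-0.60), of the same family, were the 2 of 10 such targets at least 1.5-fold lower (all genes, 3.49%). Of the 10, 0 were higher (all genes, 2.80%), and the list median was 0.01.

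Metal and protein stress genes held a few wide values. Their counts past 1.5-fold stand beside 2.80% higher and 3.49% lower over all genes. SLC39A10, a zinc importer, read 3.97 and 1.96 in HK1 and 3.67 and 2.61 in HK1EBV (0.95), and SLC30A1, a zinc exporter, read 4.73 and 4.91 in HK1 and 4.11 and 5.08 in HK1EBV (0.79). They were the 2 of 11 metallothionein and zinc genes past 1.5-fold, with a median of 0.10. CHORDC1, a co-chaperone of HSP90, was the 1 of 18 heat shock genes past 1.5-fold (0.83, median 0.16), and a count of 1 can lie near these shares.

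Death and damage genes varied singly, and their counts past 1.5-fold stand beside 2.80% higher and 3.49% lower over all genes. Of 25 p53 targets 2 were higher and 1 lower (median -0.05). TP53I3, a quinone oxidoreductase, read 2.30 and 3.18 in HK1 and 3.18 and 2.90 in HK1EBV (-1.16). CDKN1A, the cell cycle inhibitor p21, differed by -0.33. Of 28 apoptosis regulators 4 were lower and 0 higher (median -0.12). TNFSF10, the death ligand TRAIL, read 3.90 and 5.35 in HK1 and 5.79 and 6.20 in HK1EBV (-1.03). TNFRSF10D, its decoy receptor, read 4.60 and 5.17 in HK1 and 3.28 and 2.76 in HK1EBV (-1.08). Ligand and decoy receptor were therefore both lower in the difference. The other 2 were BIK (-0.75) and BAK1 (-0.72), which promote cell death at the mitochondrion. Of 37 autophagy and lysosome genes 2 were higher and 0 lower (median -0.03), GPNMB (0.80), a lysosomal glycoprotein, and WIPI1 (0.62), which marks forming autophagosomes.

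Of 32 ribosome biogenesis genes, 25 in HK1 (all genes, 3.79%) and 24 in HK1EBV (all genes, 3.63%) were at least 1.5-fold lower with CAPE. They had median changes of -0.69 and -0.83 and a median difference of -0.03. The difference was at least 1.5-fold higher for 0 (all genes, 2.80%) and lower for 1 (all genes, 3.49%). That 1 was BOP1 (-0.61), a factor of the large subunit. Oxidative phosphorylation had 2 of 26 genes lower (all genes, 3.49%) and 0 higher (all genes, 2.80%), with a median of -0.03. The 2 were NDUFB3 (-0.75) of complex I and COX7B (-0.69) of complex IV. Homologous recombination and Fanconi repair had 0 of 21 past 1.5-fold (median -0.08).

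**Figure D4:**
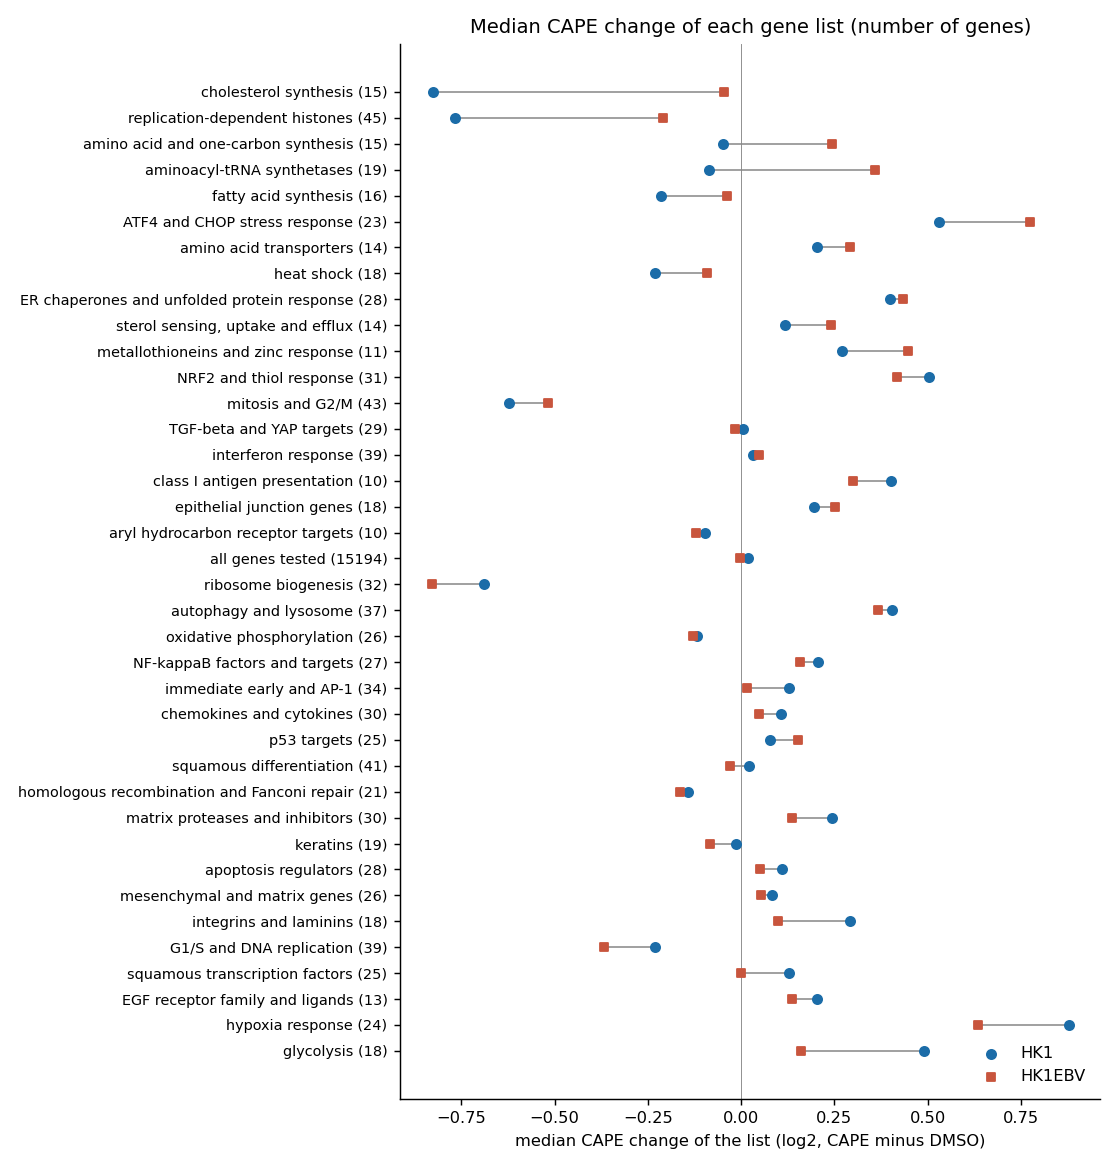
Median CAPE change of each gene list other than the cell type markers in HK1 (circles) and HK1EBV (squares), in log2 units, ordered by the median difference, with the number of genes in parentheses. Cholesterol synthesis (-0.83 and -0.05) and histones (-0.77 and -0.21) are farthest apart with HK1 lower, and glycolysis (0.49 and 0.16) and hypoxia (0.88 and 0.64) lie at the other end.

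**Figure D5:**
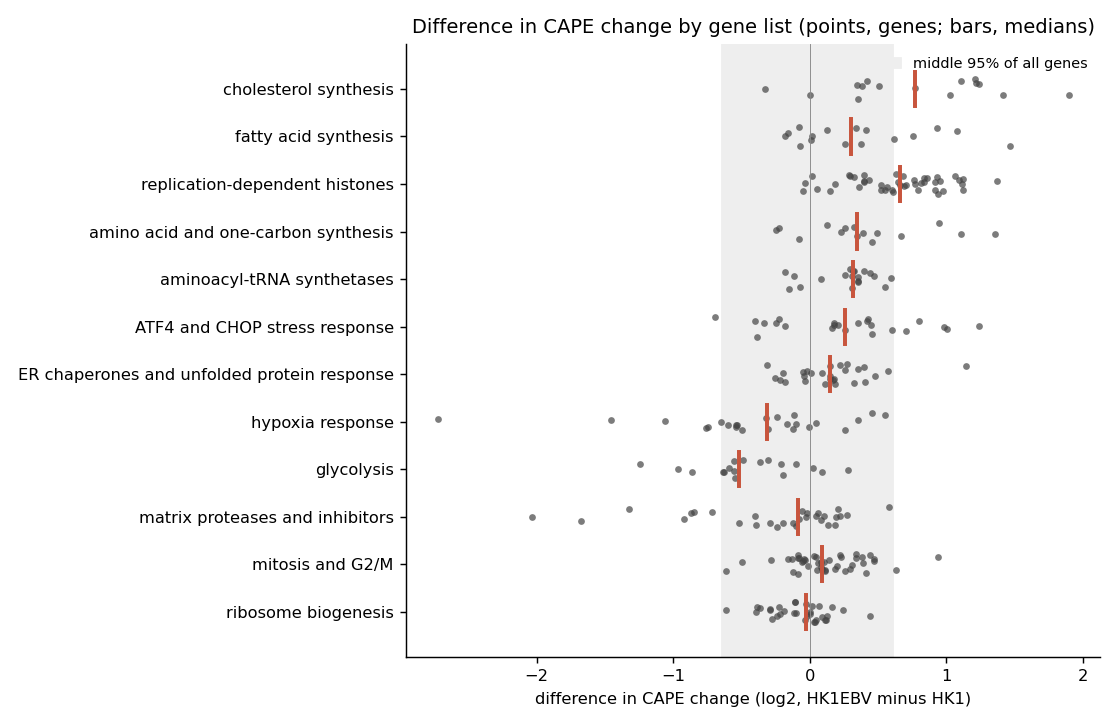
Difference in CAPE change of each gene (points) of 12 lists in log2 units, HK1EBV minus HK1, with the list median as a bar and the middle 95% of all genes (-0.64 to 0.61) shaded. Most histone genes lie to the right of 0, most glycolysis genes to the left, and the protease list spreads to -2.03 around a median of -0.09.

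Markers of other cell types were read on the same arrays. Of 9 fibroblast markers 6 passed the filter, with a median difference of -0.05. The summed log2 levels of all 9 were 13.4 to 13.95 over the arrays. Of 12 leukocyte markers 7 passed (median 0.07, sums of the 11 measured 20.4 to 22.1), led by CD68, a lysosomal protein that other cells also make, at 7.28 and 8.51 in HK1 and 7.88 and 9.03 in HK1EBV (-0.09). Of 7 endothelial markers 4 passed (median -0.21, or 0.04 with the filter at the 50th percentile, sums of the 7 measured 9.78 to 10.72). ERG, at 1.66 to 2.41 (-0.92), was the 1 of the 4 at least 1.5-fold lower (all genes, 3.49%). Of the 4, 0 were higher (all genes, 2.80%). The part of these markers in the differences was not tested.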

How the data were processed

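RNA of 4 cell line groups was hybridised to Affymetrix single-colour arrays, 1 per group, after biotin labelling with a whole-transcript kit, per the labels. The deposited values were made by RMA, per the submitters' processing notes, which returns log2 values, so that scale was assumed; the version of RMA, any later centring and the genome build were not stated in what was used here. Only differences between arrays of one probe set were used. Platform annotation named the genes, and 15178 of the 15194 examined matched a RefSeq table (GRCh38.p14) by Entrez number.

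Computation used Python 3.11.15, numpy 2.4.6, pandas 2.3.3 and matplotlib 3.10.9, and was tested on simulated data. Thresholds were 2-fold for single genes and 1.5-fold for lists. Named genes were the 20 highest and 20 lowest, up to 4 members per list with the widest difference, and preset genes; for cholesterol synthesis, hypoxia and some other lists further members were added after their values were seen. CA9, a preset gene, was not analysed here, and some preset genes are not reported here. The members and the 41 lists were chosen with earlier results of these data known. Alternatives were other scalings, filters, probe set rules and thresholds.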

Additional observations from a re-analysis of the deposited data

Results flagged for a closer look

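The CAPE changes of the lines were of opposite sign, each at least 1.5-fold, in 4 of the 15194 genes, and in 0 with both at least 2-fold. The differences were 2.58 for INSIG1, 1.41 for VIPR1, 1.37 for H2BC4 and -1.56 for DGCR6. With 1 array per group these differences were not tested.

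Probe sets outside the gene-wise comparison also held wide differences. Of 3102 probe sets above the filter with no gene symbol, 63 (2.03%) were past 2-fold, 47 higher and 16 lower in HK1EBV, against 0.770% of the genes. Of 816 with several symbols, 9 (1.10%) were past it. They carry no single gene name here, and the reason for the larger share was not tested.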

How the results depend on the processing

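The counts of 52 higher and 65 lower genes moved most with the threshold, to 426 and 531 at 1.5-fold and to 4 and 3 at 3-fold. Over the other alternatives the count of higher genes ran from 45 to 70 and that of lower genes from 53 to 68. Arrays shifted to one median gave 70 and 56, and quantile normalization 58 and 61. Removing dim genes, small RNA genes or listed histones was chosen after seeing the data and gave 46 to 52 and 63 to 65. Ranking by the spread at like level shared 16 of the 20 highest and 18 of the 20 lowest genes. Among single genes, averaging probe sets moved ATF4 from 0.70 to 0.19 and SLC1A5 from 0.41 to 0.04. Unlike values between probe sets were also seen in TIMP3 (-0.85, other probe set 0.07) and LTB (-0.69, other probe set -0.12). List medians moved by less than 0.315 under every scaling, filter and probe set rule run. That figure is the SD of the difference over single genes. It is larger than most of the list medians, so it does not measure their stability. The widest moves came with the filter at the 50th percentile, from -0.10 to -0.38 for keratins and from -0.21 to 0.04 for endothelial markers. Medians also changed sign under some setting for ribosome biogenesis, aryl hydrocarbon receptor targets, chemokines, autophagy, TGF-beta and YAP targets, epithelial junctions, oxidative phosphorylation and leukocyte markers. Leaving out an array was not possible with 1 per group. No paired analysis was possible because the labels give 1 array per group and no replicate numbers. Only 1 gene past 2-fold had another probe set above the filter, with the same sign, and of 11 other probe sets of genes past 1.5-fold 6 had the same sign, so single-gene values have little support within the array.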

Other observations

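Some genes past 2-fold lay in no list and are named here after their values were seen. HAS3, a second hyaluronan synthase, read 4.19 and 4.08 in HK1 and 5.03 and 3.91 in HK1EBV (-1.01, beside -1.57 for HAS2). SGK1, a kinase induced by steroids and stress, read 2.37 and 2.84 in HK1 and 3.54 and 2.90 in HK1EBV (-1.12). The HK1EBV DMSO array was the high one. PPARD, a fatty acid receptor, read 4.66 and 5.82 in HK1 and 5.18 and 5.22 in HK1EBV (-1.12). ARRDC3, an arrestin-like protein, was higher with CAPE in both lines, at 2.96 and 4.88 in HK1 and 3.77 and 4.54 in HK1EBV (-1.15). CST6, a cysteine protease inhibitor of the epidermis, read 3.10 and 3.71 in HK1 and 2.94 and 2.41 in HK1EBV (-1.15). On the other side, SLC17A5, the lysosomal sialic acid exporter, read 3.43 and 3.43 in HK1 and 3.37 and 4.48 in HK1EBV (1.10). ERLEC1, a lectin of the endoplasmic reticulum, read 5.54 and 5.41 in HK1 and 5.10 and 5.99 in HK1EBV (1.02). SETDB2, a histone methyltransferase, read 3.27 and 1.99 in HK1 and 1.73 and 1.62 in HK1EBV (1.17). Its HK1 DMSO array was the high one.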
